A study of Mus musculus with 30 samples.

Results

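Bleomycin, a drug that breaks DNA, injures the lung and leaves inflammation that gives way to fibrosis. The comparison described here asks for which genes that response differed between Zmpste24 deficient and WT lungs. It used 12 of the 30 arrays of the series, 3 in each of 4 groups of set 1. The series has 15 arrays in set 1 and 15 in set 2. They were chosen by their labels, as bleomycin minus saline in Zmpste24 deficient lungs (groups titled KO_old_bleo and KO_old_sal) minus bleomycin minus saline in WT lungs (titled WT_young_bleo and WT_young_v1_sal). All 12 lungs came from c57BL/6 mice with an age of 16 weeks in the labels and were taken at day 21 after a single oropharyngeal dose of bleomycin or of vehicle. The Zmpste24 deficient mice are Zmpste24 -/- and lack the gene in every cell. The WT mice are zmpste24 +/+, and their arrays are titled young but described as old, so their age is in doubt. The labels and the methods give different bleomycin doses.

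ZMPSTE24 is the metalloprotease that trims prelamin A to mature lamin A of the nuclear envelope, and mice without it age early. In a normal lung the weeks after bleomycin bring in monocyte-derived macrophages, dividing cells and matrix-producing fibroblasts, while airway and alveolar epithelium is lost and rebuilt. Whole lung was measured, so fewer cells of a type and less RNA per cell cannot be told apart. Throughout, a level is the deposited log2 value of a gene's probe set, and a response is the mean level with bleomycin minus the mean level with saline. The response difference is the Zmpste24 deficient response minus the WT response. It is above 0 where bleomycin moved a gene further up, or less far down, in Zmpste24 deficient lungs than in WT lungs.

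Zmpste24 itself lay between 5.69 and 6.56 on the 6 Zmpste24 deficient arrays and between 7.96 and 8.68 on the 6 WT arrays. The lung markers Sftpc (surfactant of type 2 cells), Ager (type 1 cells) and Scgb1a1 (club cells) were between 11.63 and 13.75 on all 12 arrays. Among the 12, Zmpste24 deficient saline array 3 stood apart, with a mean correlation of 0.919 with the other 11, against 0.96 to 0.969 for those. The female-specific RNA Xist was high (9.86 to 10.52) on that array and on WT bleomycin arrays 2 and 3 and between 4.14 and 4.80 on the other 9, so the sexes are not balanced over the groups. WT bleomycin arrays 2 and 3 each correlated best with a WT saline array of set 2 (r = 0.984 and 0.981), and the 3 Zmpste24 deficient saline arrays each with a WT saline array of set 1 or 2 (r = 0.976, 0.980 and 0.938). Most counts below are therefore also given without Zmpste24 deficient saline array 3 and on the 9 arrays low in Xist. Those 9 hold 1 WT bleomycin array, array 1, which is assumed to vary like the other groups, so each value on them rests on that lung for the WT response to bleomycin.

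The response differed between the genotypes for 969 of 22180 genes (4.37%) at a limma adjusted p under 0.05. It was higher in Zmpste24 deficient lungs for 581 (2.62%) and lower for 388 (1.75%). Of these, 442 (1.99%) differed by more than 1 on the log2 scale. The call held after leaving out each of the 12 arrays in turn for 352 genes (1.59%), 220 higher and 132 lower. At an unadjusted p under 0.05 there were 4105 genes. The number called fell to 626, 567 and 550 without Zmpste24 deficient bleomycin array 1, 2 or 3, to 530 without WT bleomycin array 1 and to 566 without WT saline array 1. It grew to 1466 and 1588 without Zmpste24 deficient saline array 1 or 2. Without array 3 of that group 1203 genes were called, 470 higher and 733 lower, of which 716 were shared with the same direction. On the 9 arrays low in Xist 1040 were called, 310 higher and 730 lower, of which 492 were shared with the same direction, with WT bleomycin array 1 as the 1 lung of its group.

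For most of the called genes the 2 estimated responses pointed opposite ways. Of the 969 genes, 862 (89%) had responses of opposite sign, against 48.9% of all genes, although taking a difference favours opposite signs. Of the 581 higher ones, 577 had a response above 0 in Zmpste24 deficient lungs and 523 a response below 0 in WT lungs, with medians of 0.66 and -0.24. Of the 388 lower ones, 380 had a response below 0 in Zmpste24 deficient lungs and 351 a response above 0 in WT lungs, with medians of -0.64 and 0.39. The single responses mostly passed in 1 genotype. By itself, the Zmpste24 deficient response passed for 2350 genes (10.6%) and the WT response for 160 (0.721%). Among the 969, only the Zmpste24 deficient response passed for 693, only the WT response for 65 and neither for 202. Both passed in opposite directions for 7, which reversed, and in the same direction for 2, Gpnmb and Cd177.

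Between the genotypes, saline lungs differed by limma at 2 genes (0.00902%), Stfa2l1, higher by 2.02, and Matn4, which encodes a matrilin and was lower in Zmpste24 deficient lungs at -0.69. Matn4 had no call for the response difference (-0.11) and is named after its values were seen. Zmpste24 itself differed by -2.24 with saline (adjusted p = 0.0558) and by -2.71 with bleomycin (adjusted p = 3.14e-05). Its saline levels did not overlap between the genotypes. The spread in the fit also takes in young saline arrays labelled Zmpste24 deficient whose Zmpste24 lay near WT. A fit without those arrays was run, and the spread it estimated for Zmpste24 was smaller. Its p-values for these genotype differences are not reported here. Bleomycin lungs differed at 3515 genes (15.8%), among them 898 of the 969 (92.7%). The response difference equals the genotype difference with bleomycin minus that with saline, so choosing genes by it raises this share. The Zmpste24 deficient saline arrays were the least alike, with a median SD over genes of 0.304, against 0.13 for the bleomycin arrays of that genotype and 0.159 for each WT group. What this spread does to the count of 2 was not tested.

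**Figure D1:**
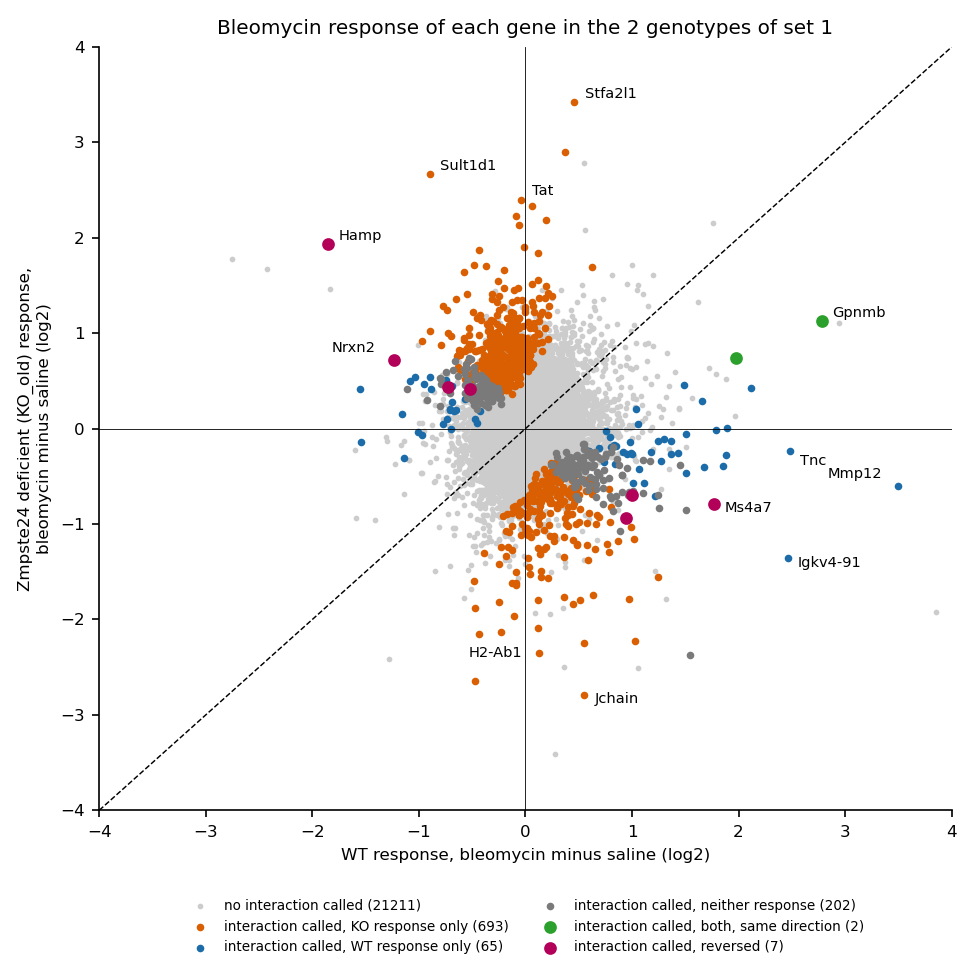
Response of each of 22180 genes to bleomycin (bleomycin minus saline, log2) in Zmpste24 deficient lungs (vertical axis) and WT lungs (horizontal axis) of set 1. Points on the dashed line would respond alike, and the 693 genes for which only the Zmpste24 deficient response passed spread along the vertical axis, away from the 65 for which only the WT response passed.

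The 7 reversed genes kept the call on leaving out each array. Hamp, which encodes the iron hormone hepcidin, had levels of 9.64, 9.13 and 9.08 in Zmpste24 deficient bleomycin lungs, against 6.63, 8.19 and 7.25 with saline. In WT lungs its levels were 7.12, 8.08 and 7.26 with bleomycin, against 10.42, 8.60 and 8.98 with saline. The bleomycin arrays thus all lay above the saline arrays in one genotype and all below them in the other, and the response difference was 3.77 (standard error 0.63, adjusted p = 0.00108).

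Nrxn2, a neurexin known from synapses, stood at 9.58, 9.58 and 9.82 in Zmpste24 deficient bleomycin lungs, against 8.83, 9.07 and 8.92 with saline. It stood at 7.34, 7.76 and 7.98 in WT bleomycin lungs, against 8.81, 9.04 and 8.90 with saline. Saline lungs of both genotypes overlapped, bleomycin lungs lay on either side of them, and the response difference was 1.95 (standard error 0.32, adjusted p = 0.000892). A pair of genes of the airway followed the same course with smaller differences. Scgb3a2, a secretoglobin of airway epithelium, had a response difference of 1.18 (standard error 0.20) and the carbonyl reductase Cbr2 of 0.93 (standard error 0.18).

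The other 3 reversed genes went the opposite way and are known from myeloid cells. In whole lung the cells that held their RNA were not told apart. Ms4a7, a membrane protein of monocyte-derived macrophages, had levels of 5.80, 5.51 and 6.02 in Zmpste24 deficient bleomycin lungs, against 6.72, 6.65 and 6.31 with saline. The WT levels were 8.37, 7.69 and 8.52 with bleomycin, against 5.93, 6.49 and 6.85 with saline. Every WT bleomycin array exceeded all other arrays, and the response difference was -2.55 (standard error 0.35, adjusted p = 0.000202). P2ry6, a receptor for the nucleotide UDP, had -1.88 (standard error 0.30). Csf2rb2, the beta chain of the mouse receptor for interleukin 3, had -1.70 (standard error 0.31), and its saline array 3 of the Zmpste24 deficient group, at 6.79, lay near the 3 bleomycin arrays of 6.60 to 6.68.

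**Figure D2:**
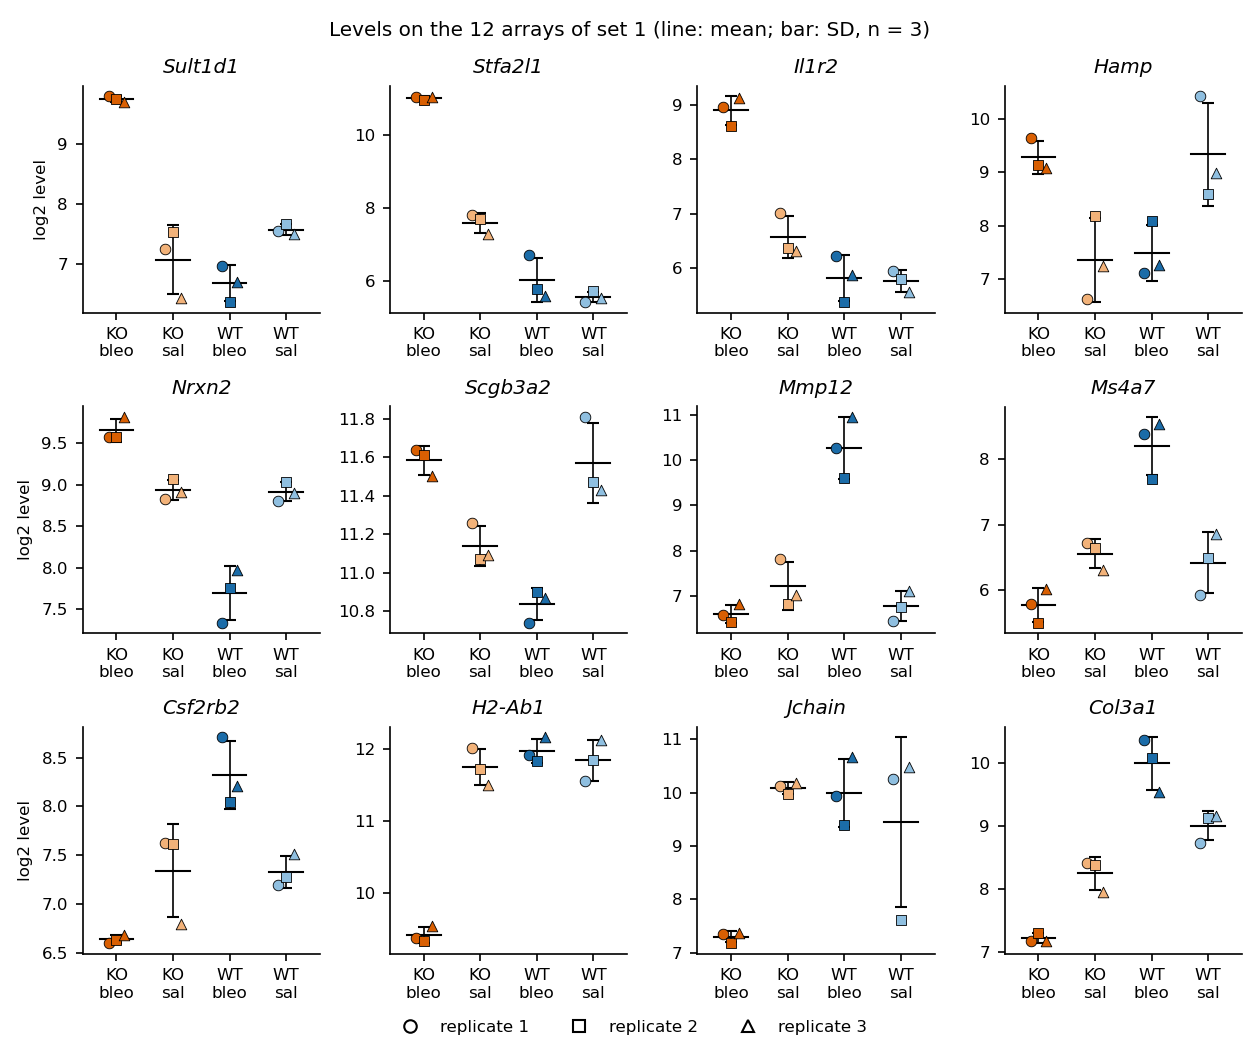
Levels (log2, 1 panel per gene with its own axis) of 12 genes on the 12 arrays, in the order Zmpste24 deficient bleomycin, Zmpste24 deficient saline, WT bleomycin and WT saline. Symbols mark arrays 1 to 3, the line the mean and the bar the SD (n = 3), and Hamp, Nrxn2, Scgb3a2, Ms4a7 and Csf2rb2 move in opposite directions in the 2 genotypes.

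Of the 12 highest response differences that held on leaving out each array, the 11 besides Hamp passed in the Zmpste24 deficient response alone, with WT estimates between -0.90 and 0.46. Sult1d1, a sulfotransferase of catechols, stood at 9.80, 9.75 and 9.71 in Zmpste24 deficient bleomycin lungs, against 7.26, 7.54 and 6.44 with saline. In WT lungs it was 6.97, 6.37 and 6.71 with bleomycin, against 7.56, 7.68 and 7.50 with saline. All WT bleomycin arrays lay below all WT saline arrays, and the response difference was 3.57 (standard error 0.32, adjusted p = 2.99e-07).

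Tat, the tyrosine aminotransferase known as a glucocorticoid-induced liver enzyme, had 8.20, 8.15 and 8.10 in Zmpste24 deficient bleomycin lungs, against 6.43, 5.33 and 5.49 with saline. On the WT arrays it lay between 4.95 and 5.41 in both groups. The response difference was 2.43 (standard error 0.44, adjusted p = 0.00215). Akr1c14, a steroid-metabolizing reductase, had a response difference of 2.32 (standard error 0.39). Galnt15, which starts O-linked sugar chains, had 2.31 (standard error 0.35) and Doc2b, a calcium sensor of vesicle release, 2.19 (standard error 0.26). Fgfbp1, which releases fibroblast growth factors from matrix, had 2.05 (standard error 0.33).

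Tat and Sult1d1 stood in a list of genes known to respond to glucocorticoids. This list and those below were chosen with earlier results of these data known, so their counts and medians are not independent evidence. All list counts are to be read against 2.62% higher and 1.75% lower over all genes. In this list of 18 glucocorticoid-responsive genes, 7 had a higher response difference and 0 a lower one, with a median of 1.04, against -0.005 over all genes. The median response was 0.99 in Zmpste24 deficient lungs and -0.25 in WT lungs. Besides Sult1d1 and Tat, Klf15, a transcription factor induced by cortisol-type hormones, had 1.89 (standard error 0.34), and Ddit4, an inhibitor of mTOR signalling, had 1.60 (standard error 0.32). The count was 6 without Zmpste24 deficient saline array 3 and 4 on the 9 arrays low in Xist. It was also 4 without Zmpste24 deficient bleomycin array 3, WT bleomycin array 3 or WT saline array 3.

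Neutrophil genes were another group among the highest. Stfa2l1, a stefin A inhibitor of cathepsins abundant in mouse neutrophils, had 11.04, 10.96 and 11.04 in Zmpste24 deficient bleomycin lungs, against 7.81, 7.70 and 7.28 with saline. The WT levels were 6.71, 5.79 and 5.60 with bleomycin, against 5.44, 5.73 and 5.55 with saline. All Zmpste24 deficient arrays lay above all WT arrays, and the response difference was 2.96 (standard error 0.42, adjusted p = 0.000202). Stfa1 had 2.52 (standard error 0.43), and since stefin A genes are near copies of each other their signals may be shared.

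Il1r2, the decoy receptor for interleukin 1, had 8.96, 8.61 and 9.12 in Zmpste24 deficient bleomycin lungs, against 7.02, 6.37 and 6.32 with saline, and lay between 5.37 and 6.22 on the 6 WT arrays. The response difference was 2.27 (standard error 0.31, adjusted p = 0.000202). Of 16 neutrophil genes, 5 had a higher and 2 a lower response difference, against 2.62% higher and 1.75% lower over all genes. The median of the 16 was 0.82. The other higher ones were S100a8, S100a9 and Cxcr2, which encode calprotectin subunits and a chemokine receptor. The lower ones, Ltf and Cd177, are made in maturing neutrophils, and Ltf also by airway glands. Ltf had levels of 7.63, 7.58 and 7.91 in Zmpste24 deficient bleomycin lungs, against 7.21, 6.87 and 7.75 with saline, and of 9.79, 9.24 and 8.62 in WT bleomycin lungs, against 6.89, 7.44 and 6.96 with saline. Its 3 WT bleomycin arrays lay above all others, for a response difference of -1.69 (standard error 0.39, adjusted p = 0.0125). The count of higher neutrophil genes was 5 without Zmpste24 deficient saline array 3. It was 3 on the 9 arrays low in Xist and without Zmpste24 deficient bleomycin array 3 or WT saline array 2. Of Ltf and Cd177, 1 was called without Zmpste24 deficient bleomycin array 1 or 2, Zmpste24 deficient saline array 3, WT bleomycin array 3 or WT saline array 2.

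The inflammatory cytokine gene Il1b moved with them, at 10.07, 10.32 and 10.33 in Zmpste24 deficient bleomycin lungs, against 7.88, 8.89 and 8.25 with saline. In WT lungs it was 7.61, 8.0 and 7.60 with bleomycin, against 7.94, 7.76 and 7.55 with saline, where the groups overlapped. The response difference was 1.91 (standard error 0.34, adjusted p = 0.00166). Il1b was the 1 higher gene among 18 NF-kappaB targets and cytokines, of which 3 were lower, Nfkb2, Vcam1 and Il1rn. Without Zmpste24 deficient saline array 3 the lower ones numbered 6, on the arrays low in Xist 4, and without Zmpste24 deficient bleomycin array 2 or WT bleomycin array 3 there was 1.

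Cardiac muscle cells sheathe the pulmonary veins of the mouse and can stay attached to the lung. Of 14 cardiac muscle genes, 6 had a higher response difference and 0 a lower one, against 2.62% higher and 1.75% lower over all genes. The median of the 14 was 1.42, the furthest from 0 of the 49 lists apart from 4 sex-linked genes. Pln, phospholamban, which restrains the calcium pump of heart muscle, had 8.34, 8.45 and 8.16 in Zmpste24 deficient bleomycin lungs, against 6.71, 6.88 and 6.26 with saline. The WT levels were 6.74, 7.57 and 7.37 with bleomycin, against 7.95, 7.41 and 7.43 with saline. The WT groups overlapped while those of Zmpste24 deficient lungs did not, and the response difference was 2.07 (standard error 0.33, adjusted p = 0.000623).

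Myl7, the atrial myosin light chain, had a response difference of 1.98 (standard error 0.41), and Hamp is in the same list. Tecrl, a reductase-like protein of heart muscle outside the list, had 2.19 (standard error 0.37). Averaged over the 14 genes, levels ran from 7.84 to 8.05 in Zmpste24 deficient bleomycin lungs, against 6.72 to 7.47 with saline, and from 7.08 to 7.91 in WT bleomycin lungs, against 7.83 to 8.52 with saline. The saline groups of the 2 genotypes did not overlap in this mean. The part of attached heart tissue in these differences was not tested. The 16 genes of skeletal muscle gave 0 calls by limma, with 1 at an unadjusted p under 0.05 and a median of 0.00. The cardiac count was 6 without Zmpste24 deficient saline array 3, 8 on the 9 arrays low in Xist and 10 without Zmpste24 deficient saline array 2.

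The lung clears foreign compounds with enzymes of club cells and other epithelium. Of 19 genes of xenobiotic metabolism, 9 had a higher and 0 a lower response difference, against 2.62% higher and 1.75% lower over all genes. The median response of the 19 was 0.31 in Zmpste24 deficient lungs and -0.57 in WT lungs. Fmo2, a flavin monooxygenase abundant in lung, had 12.79, 12.70 and 12.72 in Zmpste24 deficient bleomycin lungs, against 11.95, 11.96 and 11.43 with saline. It had 10.85, 11.05 and 10.97 in WT bleomycin lungs, against 11.30, 11.56 and 11.76 with saline. Within each genotype the groups did not overlap, and the response difference was 1.53 (standard error 0.23, adjusted p = 0.000321).

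The cytochrome Cyp4b1 had a response difference of 1.42 (standard error 0.26), Fmo1 of 1.28 (standard error 0.22) and the glutathione transferase Gsta3 of 1.91 (standard error 0.34). Nqo1, a quinone reductase, had 1.49 (standard error 0.22) and rose in Zmpste24 deficient lungs by 1.24. The count of 9 was 7 without Zmpste24 deficient saline array 3, where 1 gene was lower, and 5 on the 9 arrays low in Xist. Of 12 club and goblet cell genes, 3 were higher, Scgb3a2, Cyp2f2 and Gabrp, and 1 was lower, Ltf, and in both subsets of arrays 2 were higher and 1 lower. Of 13 ciliated cell genes, 4 were higher and 0 lower, where 2.62% of all genes were higher. Tmem212 was the highest of them at 1.25 (standard error 0.23) and Dynlrb2, a dynein light chain, had 1.09 (standard error 0.21). Their count was 2 without Zmpste24 deficient bleomycin array 2 or 3, WT bleomycin array 1 or 2 or WT saline array 1, and on the arrays low in Xist, and 3 without Zmpste24 deficient saline array 3.

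**Figure D3:**
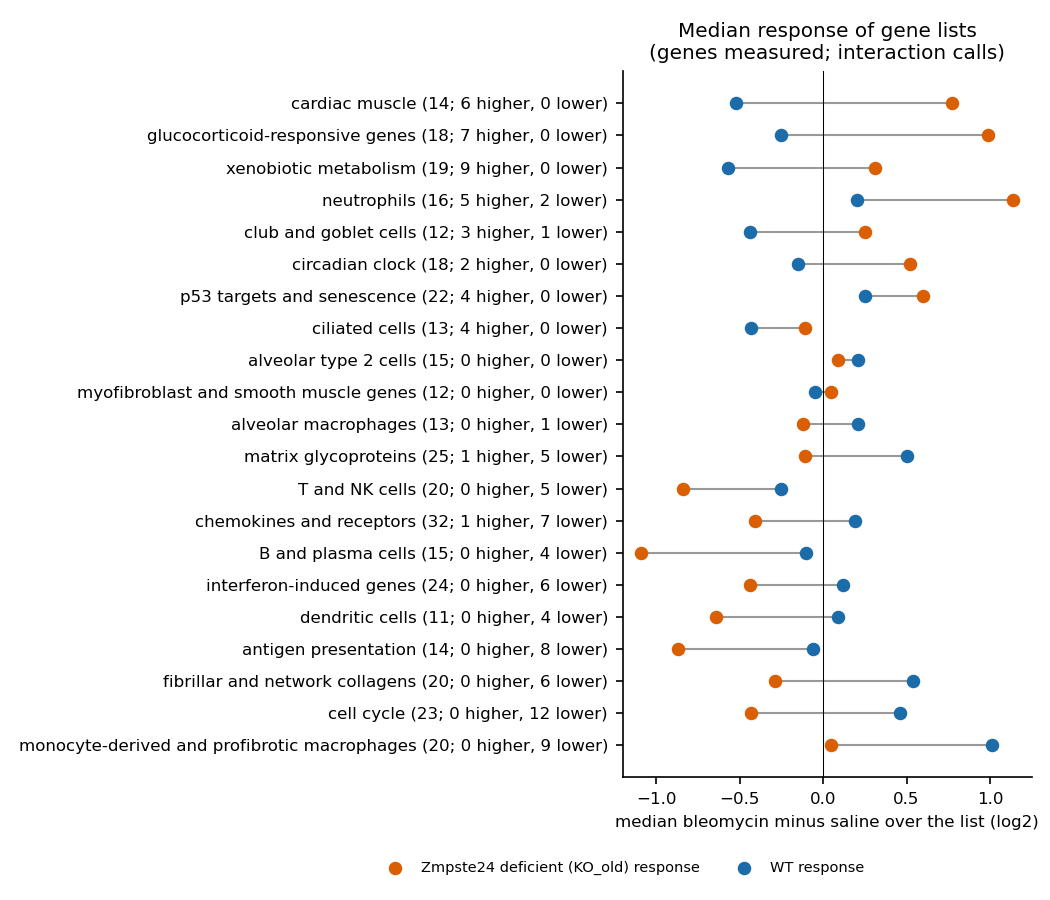
Median response to bleomycin (log2) over the genes of each of 21 lists in Zmpste24 deficient lungs (orange) and WT lungs (blue) of set 1. The labels give the genes measured and how many had a higher or lower response difference, and the medians of cardiac muscle and xenobiotic metabolism lie above 0 in Zmpste24 deficient and below 0 in WT lungs.

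Among the 12 lowest response differences that held on leaving out each array were genes known from macrophages, immunoglobulin genes and H2-Ab1, besides H2-M2, Olfr111, Slamf7 and P4ha3. Mmp12, the elastase of macrophages, had 6.59, 6.42 and 6.82 in Zmpste24 deficient bleomycin lungs, against 7.81, 6.82 and 7.01 with saline. It had 10.26, 9.59 and 10.95 in WT bleomycin lungs, against 6.45, 6.75 and 7.11 with saline. The WT bleomycin arrays stood far above the other 9, and the response difference of -4.10 (standard error 0.55, adjusted p = 0.000202) was the lowest of the genes that held on leaving out each array.

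Of 20 macrophage genes, typical of cells that come from monocytes and of profibrotic states, 9 had a lower response difference and 0 a higher one. Over all genes 1.75% were lower. The median response of the 20 was 0.05 in Zmpste24 deficient lungs and 1.01 in WT lungs. The macrophage glycoprotein gene Gpnmb had 9.01, 8.65 and 9.26 in Zmpste24 deficient bleomycin lungs, against 7.77, 8.23 and 7.54 with saline. In WT lungs it had 10.81, 9.87 and 10.92 with bleomycin, against 7.58, 7.56 and 8.12 with saline. It rose in both genotypes, by less in Zmpste24 deficient lungs, and the response difference was -1.65 (standard error 0.35, adjusted p = 0.00801). Trem2, a lipid-sensing receptor, and C1qa, a subunit of complement C1q, each had -1.58. C3ar1, the receptor for complement C3a, had -1.98 (standard error 0.40). The list's count was 10 without Zmpste24 deficient saline array 3, 11 on the 9 arrays low in Xist and between 6 and 10 over the 12 arrays left out in turn.

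Itgax, the CD11c integrin chain of dendritic cells and alveolar macrophages, had a response difference of -2.17 (standard error 0.36) and was the 1 gene called among 13 of alveolar macrophages, of which 3 were called without Zmpste24 deficient saline array 3 and 3 on the arrays low in Xist. Of 11 dendritic cell genes, 4 were lower and 0 higher, against 1.75% lower over all genes. Ccl22, a chemokine of mature dendritic cells, had 5.66, 5.37 and 5.62 in Zmpste24 deficient bleomycin lungs, against 8.20, 7.23 and 6.63 with saline, and lay between 7.03 and 7.88 on the 6 WT arrays. Its response difference was -1.93 (standard error 0.36, adjusted p = 0.00293). Itgae, the CD103 chain, had -1.10 (standard error 0.19) and Fscn1, an actin bundler of dendritic cells, -1.18 (standard error 0.23). The count was 5 without Zmpste24 deficient saline array 3 and 3 on the arrays low in Xist.

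Class II molecules of the major histocompatibility complex present peptides to helper T cells, and CIITA switches their genes on. Their promoters hold a Y box, an inverted CCAAT sequence, and a stretch of the promoter is shown for the 2 class II genes of the list that have both a called response difference and a RefSeq promoter with that motif (build GRCm38.p6). H2-Aa lies on the minus strand at chr17:34287824-34287933 and H2-Eb1 on the plus strand at chr17:34305746-34305855, with TGATTGG in capitals.
H2-Aa: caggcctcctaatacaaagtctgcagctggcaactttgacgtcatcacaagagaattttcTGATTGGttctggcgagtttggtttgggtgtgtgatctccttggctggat
H2-Eb1: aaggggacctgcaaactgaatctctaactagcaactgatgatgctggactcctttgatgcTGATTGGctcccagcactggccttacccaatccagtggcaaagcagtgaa
Within 250 bases before the gene start, TGATTGG occurred on either strand in 2375 of 32851 promoters (7.23%). It was in 3 of the 4 class II genes that the table holds, H2-Aa, H2-Eb1 and H2-DMb1, and its letters were not in the window of H2-DMa.

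H2-Ab1, the beta chain of the class II molecule I-A, had 9.37, 9.32 and 9.54 in Zmpste24 deficient bleomycin lungs, against 12.02, 11.73 and 11.51 with saline. It had 11.92, 11.84 and 12.17 in WT bleomycin lungs, against 11.56, 11.85 and 12.13 with saline. The Zmpste24 deficient bleomycin arrays lay below the 9 others, which overlapped, and the response difference was -2.48 (standard error 0.26, adjusted p = 5.87e-06). H2-Aa, the alpha chain, had 8.79, 8.47 and 8.75 in Zmpste24 deficient bleomycin lungs and lay between 9.70 and 10.57 on the other 9 arrays. H2-Eb1 had 7.74, 7.46 and 7.81 there, and between 9.41 and 10.12 elsewhere. These 2 genes had response differences of -1.64 (standard error 0.27) and -1.85 (standard error 0.26), and Ciita, their activator, had -1.52 (standard error 0.24).

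Of 14 antigen presentation genes, 8 had a lower and 0 a higher response difference, against 1.75% lower over all genes, with a median of -0.82. The median response was -0.87 in Zmpste24 deficient lungs and -0.06 in WT lungs. The count was 8 without Zmpste24 deficient saline array 3 and 5 on the 9 arrays low in Xist. It stayed between 6 and 9 over the arrays left out in turn.

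Of 15 B and plasma cell genes 4 (Jchain, Iglv1, Pou2af1 and Ighm) had lower response differences and 0 higher, against 1.75% lower over all genes. Jchain, which joins secreted IgM and IgA into polymers, had 7.36, 7.18 and 7.37 in Zmpste24 deficient bleomycin lungs, against 10.12, 9.97 and 10.19 with saline. The WT levels were 9.93, 9.40 and 10.67 with bleomycin, against 10.25, 7.62 and 10.48 with saline. WT saline array 2, at 7.62, was close to the Zmpste24 deficient bleomycin arrays, and the response difference was -3.34 (standard error 0.80, adjusted p = 0.017). The variable segment Igkv4-91 had -3.82 (standard error 0.73), Igkv9-120 had -3.26 (standard error 0.65) and Iglv1 had -2.79 (standard error 0.48). Such segments are many near copies, so probes may take up RNA of several.

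Of the 4 B and plasma cell genes, 2 were called without Zmpste24 deficient saline array 3 and 1 on the 9 arrays low in Xist. Without Zmpste24 deficient bleomycin array 1, WT bleomycin array 1 or 3 or WT saline array 2 there were 2. Averaged over the 15 genes, levels ran from 6.76 to 6.88 in Zmpste24 deficient bleomycin lungs, against 7.84 to 8.0 with saline, and from 7.74 to 8.25 in WT bleomycin lungs, against 7.67 to 8.14 with saline. Of 20 T and NK cell genes, 5 were lower, Cd3e and Cd3g, chains of the T cell receptor complex, the surface proteins Cd4 and Cd5, and the chemokine Ccl5. All 5 lost the call without WT bleomycin array 3. The count was 1 without Zmpste24 deficient bleomycin array 2 or WT saline array 1 or 2 and on the arrays low in Xist. It was 2 without Zmpste24 deficient bleomycin array 1 or 3 or Zmpste24 deficient saline array 2, 3 without WT saline array 3 and 4 without Zmpste24 deficient saline array 3. Slamf7, a receptor of plasma, NK and myeloid cells, had a response difference of -2.31 (standard error 0.34) that held on leaving out each array. H2-M2, a class I-like gene, had -2.76 (standard error 0.52). The olfactory receptor Olfr111 had -2.36 (standard error 0.53), at levels between 3.47 and 6.59, mostly under 5.2, the level below which a gene is called dim here.

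Interferon-induced genes numbered 24, of which 6 were lower and 0 higher, against 1.75% lower over all genes, with a median of -0.68. Oas2, which makes an activator of RNase L, had 6.47, 6.19 and 6.64 in Zmpste24 deficient bleomycin lungs, against 7.20, 7.88 and 7.86 with saline. It had 9.01, 9.20 and 9.26 in WT bleomycin lungs, against 8.25, 8.53 and 8.37 with saline. The 4 groups did not overlap, and the response difference was -1.99 (standard error 0.29, adjusted p = 0.000274). The count was 6 without Zmpste24 deficient saline array 3 and 1 on the 9 arrays low in Xist. It was 3 without Zmpste24 deficient bleomycin array 2 or WT bleomycin array 3, and 2 without WT saline array 1. Of 32 chemokines and receptors, 7 were lower, among them the interferon-induced Cxcl9 and Cxcl10, and Cxcr2 was higher, a call lost without Zmpste24 deficient bleomycin array 3, WT bleomycin array 3 or WT saline array 2. The lower ones numbered 9 without Zmpste24 deficient saline array 3 and 5 on the arrays low in Xist. They numbered 4 without Zmpste24 deficient bleomycin array 2 or WT bleomycin array 3, and 3 without WT bleomycin array 1 or WT saline array 1.

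Of 23 cell cycle genes, 12 had a lower and 0 a higher response difference, against 1.75% lower over all genes. The median responses of the 23 were -0.43 in Zmpste24 deficient lungs and 0.46 in WT lungs. Mki67, the Ki-67 antigen of dividing cells, had 6.67, 6.22 and 6.04 in Zmpste24 deficient bleomycin lungs, against 8.18, 7.50 and 6.80 with saline. In WT lungs it had 9.32, 7.89 and 8.03 with bleomycin, against 7.19, 7.81 and 7.62 with saline. WT bleomycin array 1 was the highest, and the response difference was -2.05 (standard error 0.43, adjusted p = 0.00714). Top2a, the topoisomerase of mitosis, had -2.07 (standard error 0.43). Without WT bleomycin array 1, 3 of the 12 were called, and without WT saline array 1, 4 were. The count was 7, 6 and 7 without Zmpste24 deficient bleomycin array 2 or 3 or WT saline array 3. It was 10 without Zmpste24 deficient saline array 3. On the 9 arrays low in Xist it was 18, where the 1 WT bleomycin lung is array 1.

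Of 20 fibrillar and network collagens, which form the scar matrix, 6 were lower and 0 higher, against 1.75% lower over all genes, with median responses of -0.29 in Zmpste24 deficient lungs and 0.54 in WT lungs. Col3a1, the chain of type III collagen, had 7.17, 7.31 and 7.18 in Zmpste24 deficient bleomycin lungs, against 8.42, 8.39 and 7.95 with saline. It had 10.37, 10.08 and 9.55 in WT bleomycin lungs, against 8.74, 9.14 and 9.16 with saline. The 4 groups did not overlap, and the response difference was -2.02 (standard error 0.40, adjusted p = 0.00477). Col6a3, of type VI collagen, had -1.62 (standard error 0.36), and these 2 were the collagens that held on leaving out each array.

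Col1a1 and Col1a2, of type I collagen, had -1.96 (standard error 0.54) and -1.68 (standard error 0.44). Both lost the call without any of the Zmpste24 deficient bleomycin arrays, WT bleomycin array 1 or WT saline array 2, among others. The count of collagens was 2 without Zmpste24 deficient bleomycin array 1 or 2, WT bleomycin array 1 or WT saline array 2, and 3 without Zmpste24 deficient bleomycin array 3 or WT saline array 1. It was 7 without Zmpste24 deficient saline array 3. On the 9 arrays low in Xist it was 10, where the 1 WT bleomycin lung is array 1. P4ha3, a subunit of the enzyme that hydroxylates collagen prolines, was the 1 gene called of 16 for collagen processing, at -2.16 (standard error 0.46). In that list 5 were called without Zmpste24 deficient saline array 3, 6 on the arrays low in Xist and 2 without WT bleomycin array 3 or WT saline array 3.

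Of 25 matrix glycoproteins, 5 were lower and 1, the growth factor binding protein Igfbp3, was higher at 1.74 (standard error 0.33). Fibronectin, Fn1, had 9.95, 9.94 and 10.09 in Zmpste24 deficient bleomycin lungs, against 10.25, 11.26 and 9.68 with saline. In WT lungs it had 12.69, 12.28 and 11.86 with bleomycin, against 10.03, 10.72 and 11.02 with saline. The groups overlapped in Zmpste24 deficient lungs but not in WT lungs, and the response difference was -2.09 (standard error 0.51, adjusted p = 0.0188), which lost the call without WT bleomycin array 1 or WT saline array 1. Tenascin C, Tnc, had -2.71 (standard error 0.72), a call lost without any Zmpste24 deficient bleomycin array, WT bleomycin array 1 or WT saline array 1 or 3. Mfap4 and Ltbp2, of elastic microfibrils, had -1.91 and -1.68 and held on leaving out each array. The count was 9 without Zmpste24 deficient saline array 3, 10 on the arrays low in Xist, 3 without Zmpste24 deficient bleomycin array 1 and 2 without WT bleomycin array 1 or WT saline array 1.

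Of 17 metalloproteinases and inhibitors, Mmp12, Mmp2, Mmp19 and Mmp13 were lower and Timp4, an inhibitor, was higher at 1.43 (standard error 0.26). Mmp19 had 7.47, 7.17 and 7.47 in Zmpste24 deficient bleomycin lungs, against 7.35, 7.41 and 7.37 with saline, and 9.53, 8.52 and 9.19 in WT bleomycin lungs, against 7.04, 7.22 and 7.62 with saline. The 3 WT bleomycin arrays lay above the other 9, and the response difference was -1.79 (standard error 0.31, adjusted p = 0.00132). The lower ones were 4 without Zmpste24 deficient saline array 3 and 5 on the arrays low in Xist. They were 2 without Zmpste24 deficient bleomycin array 3, WT bleomycin array 1 or WT saline array 1. Elastin, Eln, had -1.88 (standard error 0.54, adjusted p = 0.0424), lost without 8 of the 12 arrays. Timp1, at -1.91 (adjusted p = 0.0531), and Tgfb1, at -0.91 (adjusted p = 0.0522), did not pass. Igf1, a growth factor of macrophages and fibroblasts, had -1.61 (standard error 0.32). Of 12 myofibroblast and smooth muscle genes 0 were called by limma and 1 had an unadjusted p under 0.05. Without Zmpste24 deficient saline array 2, 1 was called higher, and Cnn1, calponin of smooth muscle, had 0.88 (standard error 0.41, adjusted p = 0.241).

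The study names several microRNAs, and 6 of their genes were measured. Of these, 4 were called, and Mir29a and Mir145a were not. Since a probe set measures the hairpin gene, its 2 arms were not told apart. The mature strands of the 4 called genes and of Mir29a are shown, from RefSeq GRCm38.p6, with the seed, bases 2 to 8, in capitals.
mmu-miR-23a-3p: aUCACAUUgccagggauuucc
mmu-miR-27a-3p: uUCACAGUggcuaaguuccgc
mmu-miR-29b-3p: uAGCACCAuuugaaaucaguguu
mmu-miR-29a-3p: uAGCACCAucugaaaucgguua
mmu-miR-491-5p: aGUGGGGAacccuuccaugagg
The seed AGCACCA is shared by miR-29a-3p and miR-29b-3p, a family known to repress collagen and elastin mRNAs. Mir23a and Mir27a lie in 1 cluster on chromosome 8 and have different seeds.

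Mir23a had 8.37, 8.0 and 8.32 in Zmpste24 deficient bleomycin lungs, against 6.55, 7.30 and 7.65 with saline, and 6.49, 7.04 and 7.21 in WT bleomycin lungs, against 7.81, 6.93 and 7.60 with saline. The Zmpste24 deficient groups did not overlap while the WT groups did, and the response difference was 1.60 (standard error 0.38, adjusted p = 0.0159). Mir27a followed at 1.06 (standard error 0.29) and Mir491 at 1.13 (standard error 0.33). Mir29b-1 had 3.05, 3.05 and 2.80 in Zmpste24 deficient bleomycin lungs, against 2.29, 2.88 and 2.14 with saline, and 2.71, 3.01 and 2.35 in WT bleomycin lungs, against 3.06, 3.74 and 3.67 with saline. Its response difference of 1.33 (standard error 0.29, adjusted p = 0.00944) held on leaving out each array, although every level was dim (under 5.2), and Mir29a, at 1.11 (standard error 0.50, adjusted p = 0.224), did not pass. Mir23a lost the call without WT bleomycin array 1 or WT saline array 1, Mir27a without any of 6 arrays and Mir491 without any of 11. Of the 6 genes, 3 were called without Zmpste24 deficient saline array 3 and 2 on the arrays low in Xist. These genes were picked by the study on its own arrays, so their count is not independent evidence.

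The same difference could be taken within set 2, from 12 arrays that set 1 does not share. There the Zmpste24 deficient lungs carry an age of 7 weeks in the labels and the WT lungs of 82 weeks, and 586 genes (2.64%) were called. Zmpste24 stood at 6.09, 7.60 and 7.93 on the saline arrays labelled Zmpste24 deficient in set 2, against 7.98 to 8.62 on its WT arrays, so arrays 2 and 3 go against their label. Without them, and without 1 like array of set 1 outside the 12, 150 genes were called. Of the 969 genes of set 1, 49.4% had the same sign in set 2, against 54.4% of all genes. Of those also called in set 2, 19 had the same and 78 the opposite sign. Without the arrays that go against their label these were 3 and 27, and the shares with the same sign 40.1% and 48.9%, from a saline group of 1 Zmpste24 deficient array that is assumed to vary like the others. Mmp12 had a response difference of 2.17 (standard error 0.55, adjusted p = 0.0296) in set 2, against -4.10 in set 1, and 2.69 (standard error 0.67, adjusted p = 0.0608) without those arrays. In set 2 its levels were 9.43, 9.06 and 8.78 in Zmpste24 deficient bleomycin lungs, against 6.12, 6.86 and 6.96 with saline, and 9.39, 10.79 and 10.82 in WT bleomycin lungs, against 10.36, 10.23 and 9.57 with saline. Its WT saline lungs of 82 weeks thus stood with the bleomycin lungs. Genotype, age and set cannot be told apart in setting the 2 sets side by side.

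The WT response of set 1 could also be exchanged for that of set 2, keeping the Zmpste24 deficient arrays. Then 309 genes were called, 185 higher and 124 lower, of which 114 were called in the same direction within set 1. The antigen presentation list had 4 lower genes and a median of -0.53, B and plasma cells 4 lower and -0.87, and glucocorticoid-responsive genes 4 higher and 0.33. Cardiac muscle had 0 calls and a median of 0.47, neutrophils 1 higher and 0.25, and ciliated cells 0 calls and 0.05. T and NK cells had 1 lower and -0.53, and dendritic cells 1 lower and -0.21. The macrophage list had 0 lower and 2 higher genes and a median of 0.39, the collagens 0 calls and 0.15, and the cell cycle 0 calls and 0.16. The interferon list had 0 lower and 2 higher genes and a median of 0.40, and xenobiotic metabolism 0 calls and -0.09. Matrix glycoproteins had 0 calls and a median of 0.06, and metalloproteinases and inhibitors 0 lower and 1 higher and 0.23. Several of the genes described above no longer passed, among them Hamp at 1.92 (adjusted p = 0.125), Stfa2l1 at 1.28 (adjusted p = 0.122), Il1r2 at 1.03 (adjusted p = 0.0936), Pln at 0.83 (adjusted p = 0.2) and Mmp12 at -0.88 (adjusted p = 0.433). Sult1d1 had 2.11 (adjusted p = 0.000888) and H2-Ab1 -1.90 (adjusted p = 0.00031). Col3a1 had 0.02. It stood at 9.65, 8.39 and 8.53 in WT bleomycin lungs of set 2, against 9.98, 9.86 and 9.90 with saline, a response of -1.06 where that of set 1 was 0.99.

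A fit to the 12 arrays alone, with fewer arrays to estimate the spread, called 155 genes by limma, with 2907 at an unadjusted p under 0.05. In it 0 of the 23 cell cycle genes and 0 of the 6 microRNA genes were called, and 1 each of the interferon, chemokine, T and NK cell, and B and plasma cell lists was lower. There were 5 lower antigen presentation genes, 3 lower each of macrophages, dendritic cells and collagens, and 2 lower matrix glycoproteins. On the other side 4 each of the glucocorticoid, neutrophil and xenobiotic lists, 3 of cardiac muscle and 1 of ciliated cells were higher. Jchain (adjusted p = 0.0629), Igkv9-120 (adjusted p = 0.0535), Olfr111 (adjusted p = 0.0513) and Cbr2 (adjusted p = 0.0813) did not pass.

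**Figure D4:**
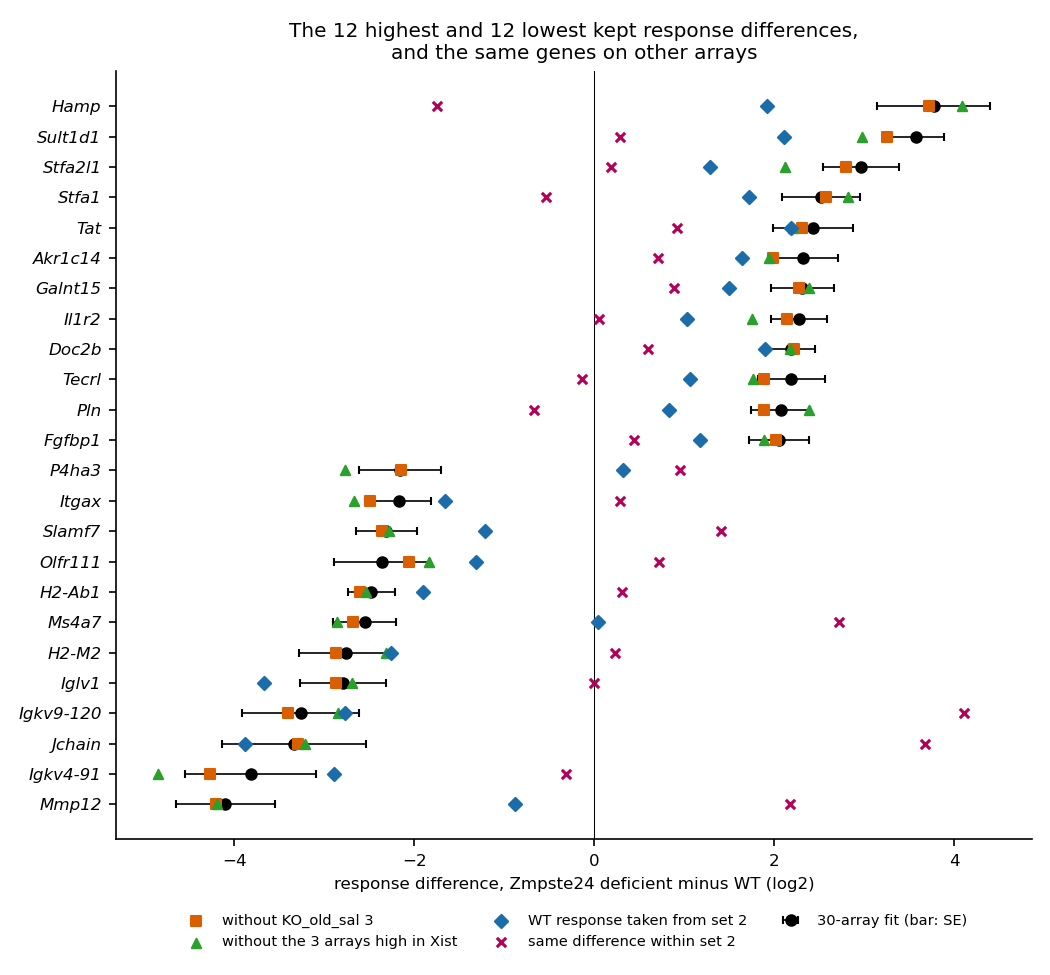
Response difference (log2, Zmpste24 deficient minus WT) of the 12 highest and 12 lowest genes that held on leaving out each array, with its standard error (black), without Zmpste24 deficient saline array 3, on the 9 arrays low in Xist, with the WT response of set 2, and within set 2. Without Zmpste24 deficient saline array 3 and on the 9 arrays low in Xist all 24 genes keep their sign. With the WT response of set 2, Ms4a7 and P4ha3 change sign. Within set 2, Mmp12, Jchain and Igkv9-120 lie at 2.17, 3.67 and 4.11.

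**Figure D5:**
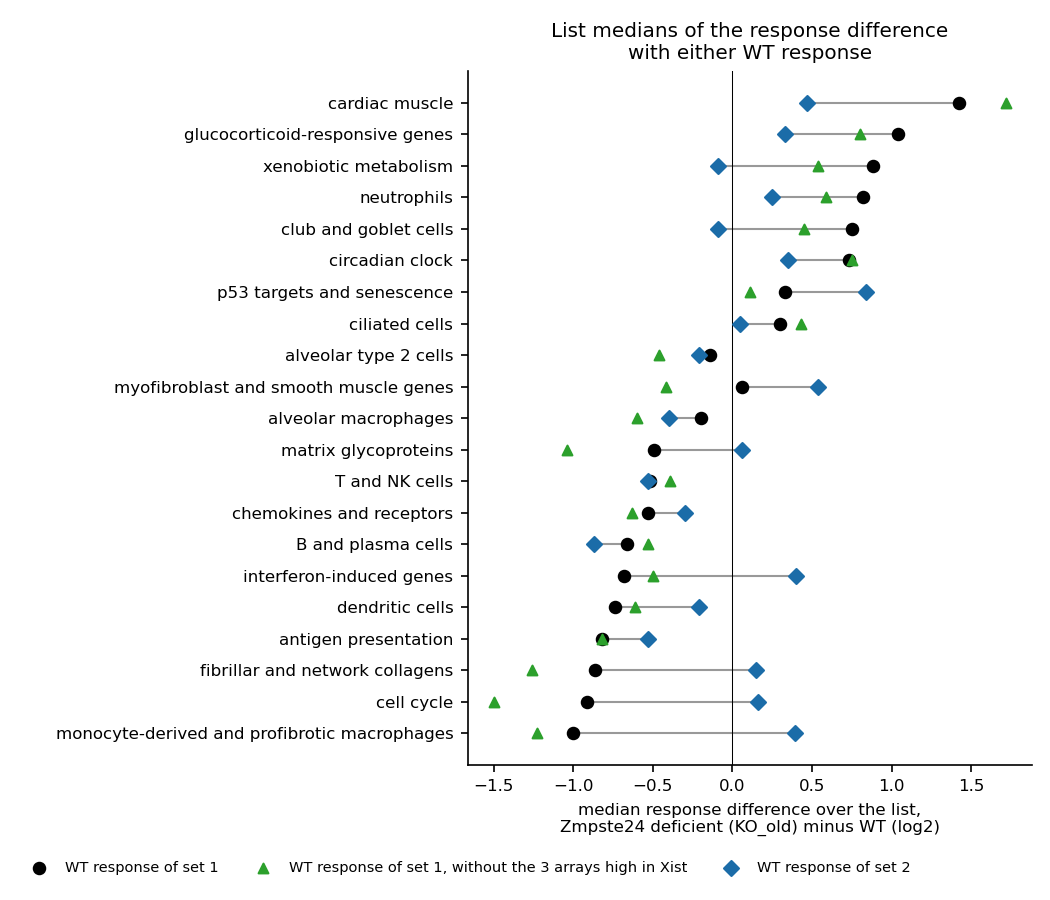
Median response difference (log2) over the genes of 21 lists with the WT response of set 1 (black), on the 9 arrays low in Xist (green) and with the WT response of set 2 (blue). The antigen presentation medians are -0.82, -0.82 and -0.53, while those of monocyte-derived macrophages are -1.0, -1.23 and 0.39.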

How the data were processed

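Biotin-labelled RNA of whole lungs was measured on arrays (Affymetrix, Mouse Gene 2.0 ST). The authors deposited log2 values per probe set, whose background correction and normalization no source used here gives, and they were used without further normalization. Per the labels, limma was used by the authors. Of 41345 probe sets, 23521 named 1 gene, and for each gene the one with the highest mean was kept, leaving 22180 genes. A model of 10 group means was fitted to the 30 arrays together (limma 3.58.1 in R 4.3.3, lmFit and eBayes), with Benjamini-Hochberg adjustment over all genes and a call at an adjusted p under 0.05. The fit was run on simulated data that gave each gene the same spread in all groups. That run cannot show how the fit handles groups of unequal spread. P-values measure the spread between arrays within a group, pooled over all 10 groups and not only the 4 compared. The pooling takes that spread as alike in all groups, although the median SD was 0.304 for Zmpste24 deficient saline and 0.13 for Zmpste24 deficient bleomycin arrays. With only the 4 groups fitted, 155 genes were called. The 3 arrays a group limit the precision. The labels do not say whether WT saline arrays of set 1 repeat lungs of set 2.

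Named were the 12 highest and 12 lowest called genes, those keeping the call on leaving out each of 12 arrays first, up to 8 reversed genes, genes the paper names, and up to 4 called genes per list (the 2 largest where none was called). Matn4, Ltbp2, Trem2, C1qa, Cxcr2, Cd5, Cd177, H2-DMa, H2-DMb1 and the lung markers were chosen after their values were seen. The members and the 49 lists were chosen with earlier results of these data known. Alternatives were other array subsets, normalizations, variance models, thresholds and WT groups, and, chosen after seeing the data, an Xist covariate and the 9 arrays low in Xist. Python 3.11.15, pandas 2.3.3, numpy 2.4.6 and matplotlib 3.10.9 were used.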

Additional observations from a re-analysis of the deposited data

Results flagged for a closer look

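The bleomycin effect differed between the genotypes, by the test of the response difference itself, for 969 genes. The named ones are given here as Zmpste24 deficient response minus WT response on the log2 scale. The highest that held on leaving out each array were Hamp at 3.77, Sult1d1 at 3.57, Stfa2l1 at 2.96, Stfa1 at 2.52, Tat at 2.43 and Akr1c14 at 2.32. They were followed by Galnt15 at 2.31, Il1r2 at 2.27, Doc2b and Tecrl each at 2.19, Pln at 2.07 and Fgfbp1 at 2.05. The lowest were Mmp12 at -4.10, Igkv4-91 at -3.82, Jchain at -3.34, Igkv9-120 at -3.26, Iglv1 at -2.79 and H2-M2 at -2.76. They were followed by Ms4a7 at -2.55, H2-Ab1 at -2.48, Olfr111 at -2.36, Slamf7 at -2.31, Itgax at -2.17 and P4ha3 at -2.16. The reversed genes, besides Hamp and Ms4a7, were Nrxn2 at 1.95, P2ry6 at -1.88, Csf2rb2 at -1.70, Scgb3a2 at 1.18 and Cbr2 at 0.93.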

How the results depend on the processing

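The number of genes with a response difference, 969, was 155 when only the 12 arrays were fitted, 309 with the WT response of set 2, 494 with Xist as a covariate, 248 and 1762 at an adjusted p under 0.01 and 0.1, and 530 to 1588 on leaving out 1 array (without WT bleomycin array 1 and without Zmpste24 deficient saline array 2). The 442 genes beyond 1 on the log2 scale became 144, 169 and, at 0.01, 201 under those settings, and 316 to 625 with 1 array left out. The Zmpste24 deficient response, 2350 genes, was 669 on the 12 arrays, 1070 with array weights, 928 and 3700 at the other thresholds, and 1185 to 3746 with 1 array left out. The WT response, 160 genes, was 33 on the 12 arrays, 371 on the 9 low in Xist, 389 with array weights, 259 after quantile normalization, 40 and 322 at the other thresholds, and 27 to 341 with 1 array left out. The difference within set 2, 586 genes, was 150 without the 3 young saline arrays whose Zmpste24 lay near WT. It was 2701 with array weights and 239 at 0.01. The same count was 929 without the 3 Xist-high arrays of set 1, and 518 to 900 with 1 of the 12 set 1 arrays left out. Leaving out set 1 arrays removes no set 2 array, so 929 is not a set 2 difference corrected for sex. Only the pooled spread changes there, not the set 2 estimates. The replicate number as a block was fitted on the 12 arrays alone. It gave 88, 88, 396 and 22 for the first 4 counts, against 155, 144, 669 and 33 on those arrays without it. Same-numbered arrays correlated between -0.35 and 0.25 over 18 pairs and 2 of 12 arrays correlated best with their own number, so the numbers do not pair the lungs. Quantile normalization gave 641 higher and 576 lower genes, against 581 and 388. With the WT response of set 2, 70 of 124 called named genes lost the call. So did 63 when only the 12 arrays were fitted, 78 with the replicate block, 36 with Xist as a covariate and 32 on the 9 arrays low in Xist, which hold 1 WT bleomycin array. With the WT response of set 2, 28 of the 124 also changed sign, and 0 did under the other settings run. They were Ms4a7 (0.04), P4ha3 (0.32), Cbr2 (-0.10), Tnc (1.85), Mmp13 (0.34), Eln (0.38), Col1a1 (0.53), Col3a1 (0.02), Fn1 (0.21), Klf15 (-0.08), Col1a2 (0.32), Mmp2 (0.23), Inmt (-0.29), Gpnmb (0.86), C1qb (1.02), Tnip3 (0.65), Cyp2f2 (-0.34), Ltf (1.07), Ednrb (-0.13), Fscn1 (0.07), Cxcl10 (0.43), Oasl2 (0.28), Zbp1 (0.14), C3ar1 (1.26), Egr2 (0.19), Ccna2 (0.25), Cyp4b1 (-0.09) and Fmo1 (-0.16). The cause was not tested. Dim probe sets limit Mir29b-1, Mir491 and Olfr111, and dim levels limit the WT response of Tat.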

Other observations

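Other lists had fewer calls, to be read against the 4.37% of all genes called. Of 22 p53 targets and senescence genes, 4 had a higher and 0 a lower response difference, among them Sesn1, an antioxidant p53 target, at 1.33 (standard error 0.25). On the 9 arrays low in Xist, with 1 WT bleomycin array, 3 were higher and 2 lower. Of 22 immediate early genes 3 were higher and 1 was lower. Their higher count was 1 without Zmpste24 deficient bleomycin array 3, WT bleomycin array 1 or WT saline array 1, and 5 without Zmpste24 deficient saline array 2. Of 18 clock genes 2 were higher, among them Cry2, a repressor of the clock, at 1.39 (standard error 0.30), and this count ran from 1 to 6 on leaving out 1 array. Alveolar type 2 cell genes had 0 calls of 15 by limma and 1 at an unadjusted p under 0.05, and the 15 genes of the nuclear lamina also had 0 and 1. Without Zmpste24 deficient saline array 3, 2 of the alveolar type 2 cell genes were lower, and on the 9 arrays low in Xist 2 of the nuclear lamina.

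Families were also taken by their symbols, after the values were seen. Their counts are to be read against 2.62% higher and 1.75% lower over all genes. Of 21 immunoglobulin segments and chains 8 were lower, 0 higher and 3 held on leaving out each array, with a median of -2.21. Of 34 H2 genes 9 were lower and 0 higher. Of 98 cytochrome P450 genes 7 were higher and 0 lower. Of 1105 olfactory receptors 4 were higher and 10 lower, and of 472 microRNA genes 7 were higher and 3 lower, both smaller shares than over all genes.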
